A study of Mus musculus with 48 samples.

Results

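Kit, the gene of the receptor for stem cell factor, is 1 of 24328 gene symbols in the RNA-seq count tables of 48 libraries of natural killer (NK) cells from mouse spleen. It was chosen by its measured values, namely lower levels in the later maturation fractions and in libraries labelled as Bach2 knockouts, so its levels and fold changes below are a description and carry no test. The libraries form 14 groups in 3 experiments. In the conditional experiment control animals (cWT) carry Ncr1Cre, a Cre recombinase driven by the NK cell gene Ncr1, and conditional knockouts (cKO) are Bach2flox/flox Ncr1Cre, so both genotypes carry the Cre. Each genotype gave the fractions NK, iNK, mNK1 and mNK2, with 3 libraries apiece. The WT subset experiment, from animals labelled WT, holds iNK, mNK1 and the mNK2 cells split into KLRG1-negative and KLRG1-positive, with 4 libraries apiece. In the chimera experiment mice rebuilt from mixed WT and Bach2-KO bone marrow gave 4 WT and 4 KO libraries of the fraction labelled NK. The labels give no age, strain background, agent, or surface markers for the gates, and they do not say that replicates are separate animals, so every p-value below measures the spread between samples, which may be technical. Whether the fraction NK is unfractionated is not given either, and iNK and mNK are read here as immature and mature NK cells.

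KIT is a receptor tyrosine kinase of the class that also holds the PDGF receptors, CSF1R and FLT3. Binding of stem cell factor, the product of Kitl, pairs receptor chains, which phosphorylate each other and recruit SRC family kinases, PI3 kinase, GRB2 with the RAS and MAP kinase chain, and STAT5, while phosphatases and CBL ubiquitin ligases end the signal. The receptor marks blood stem and progenitor cells, mast cells, melanocytes and germ cells, and among innate lymphoid cells it is known mainly from precursors and less mature cells. BACH2 is a transcriptional repressor of the bZIP family.

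Kit lies on the plus strand of mouse chromosome 5, and RefSeq places it at chr5:75574987-75656722 of GRCm38.p6 (gene ID 16590, 81736 bases), with 0 other RefSeq genes overlapping it. The count tables were made on build mm9 and give symbols without coordinates, so these positions are those of the RefSeq table. The sequence of the 250 bases before the RefSeq start site, chr5:75574737-75574986, is shown because the level of this transcript is the subject of the values that follow. Capitals mark matches to 2 of 7 searched motifs, read on both strands.
Kit promoter: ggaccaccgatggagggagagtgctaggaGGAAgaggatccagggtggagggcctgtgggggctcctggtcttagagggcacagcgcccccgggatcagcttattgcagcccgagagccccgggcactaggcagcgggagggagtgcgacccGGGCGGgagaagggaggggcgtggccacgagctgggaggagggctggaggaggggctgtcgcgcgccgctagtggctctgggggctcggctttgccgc
The window is rich in G and C, at 70.8% against a median of 52% over the 27025 promoter windows of the RefSeq table, and holds 17 CpG dinucleotides against a median of 6. The GC box GGGCGG, bound by SP1 and related factors, occurs 1 time at position -98 from the start site and in 32.9% of all windows. The ETS core GGAA occurs 1 time at position -221 and in 93.4% of windows. No match was present in this window for the AP-1 and Bach core TGANTCA (6.87% of windows), for GATA (54.1%), for the E-box CANNTG (66%), for the RUNX motif TGTGGT (14.2%) or for the TCF-1 and LEF1 motif CTTTGA (14%). A match is a string of letters and not a measured binding site, and the Kit enhancers outside the window were not searched.

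Depth was 13650636 to 21029172 counts for a conditional library, 8973777 to 11924274 for a WT subset library and 8557018 to 12927472 for a chimera library. Of these Kit received 18 to 541, 58 to 1843 and 79 to 432 counts, and the Poisson error was smaller than the spread between libraries in all groups but cWT NK and cKO NK. The pre-ribosomal gene Rn45s took at most 0.360% of a conditional library, but 18.6% to 29.1% of each WT subset library and 20.04% to 25.8% of each chimera library. Levels are therefore compared only within an experiment. The 11 NK markers examined had counts in every group, but their sum differed between fractions, as given with the other marker sums below. Bach2 stood at 2.11 ± 0.926 CPM (counts relative to the TMM-scaled library total) in the chimera KO libraries against 15.5 ± 2.21 CPM in WT (SD, n = 4), but it was not lower in the libraries labelled cKO: in mNK2, for example, the levels were 19.3 ± 4.85 against 11.9 ± 1.35 CPM in cWT (SD, n = 3, edgeR adjusted p = 0.442). In iNK, mNK1 and mNK2 every cKO library lay above every cWT library in Bach2, while in NK the genotypes overlapped. A gene-level count cannot tell an intact transcript from one that lacks the floxed exon.

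A pair of control libraries in each fraction stood apart in Ncr1, the gene that drives the Cre. Ncr1 in cWT replicates 1 and 2 was 229 and 198 CPM in NK, 78.6 and 56.1 CPM in iNK, 160 and 182 CPM in mNK1, and 342 and 279 CPM in mNK2. In cWT replicate 3 it was 826, 351, 788 and 1129 CPM in the same order. The cKO libraries lay above all of these, at 1550 to 1578 CPM in NK, 485 to 576 CPM in iNK, 1272 to 1382 CPM in mNK1 and 2059 to 2423 CPM in mNK2. Kit values that rest on the cWT libraries are therefore given with all 3 and with replicate 3 alone, an alternative chosen after seeing the data, and the part of this difference in the Kit values was not tested.

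Kit was highest in the iNK libraries of the WT subsets and lower in each later fraction. It reached 150.4, 129, 165 and 148 CPM in the iNK libraries and 43.1, 57.6, 78.5 and 89.7 CPM in mNK1. KLRG1-negative mNK2 held 13.97, 17.4, 23.4 and 27.3 CPM, and KLRG1-positive mNK2 held 11.6, 6.38, 9.79 and 11.4 CPM. No library of a fraction overlapped with the next in this order. The means were 148 ± 14.7, 67.2 ± 20.9, 20.5 ± 5.96 and 9.79 ± 2.41 CPM (SD, n = 4). Step by step, the fitted log2 fold change of Kit was -1.14 ± 0.20 (SE) from iNK to mNK1, -1.71 ± 0.21 to KLRG1-negative mNK2, and -1.06 ± 0.23 to the KLRG1-positive cells. The middle step, which separates mNK1 from mNK2, had the largest estimate of the 3. Its SE range did not overlap with those of the other steps, which overlapped with each other. The difference between steps was not tested. In bulk libraries fewer Kit-expressing cells and less Kit RNA per cell cannot be told apart.

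**Figure D1:**
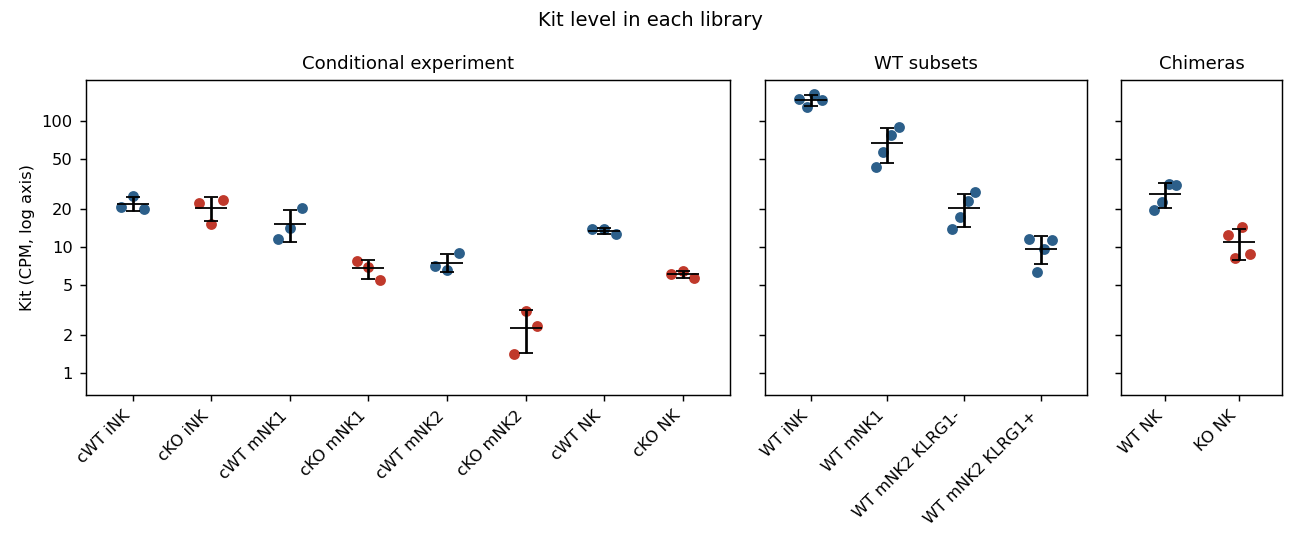
Kit level in each of the 48 libraries on a log axis of CPM, in 3 panels for the 3 experiments. Points are libraries (blue cWT or WT, red cKO or KO), long bars are group means and whiskers are 1 SD; in the WT subsets the means step down from 148 to 9.79 CPM, and in the conditional experiment the cKO points lie below the cWT points in NK, mNK1 and mNK2 but among them in iNK.

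The same order was present within each genotype of the conditional experiment, with a weaker first step in cWT. Kit stood at 20.99, 25.4 and 20.1 CPM in the cWT iNK libraries, at 11.7, 14.3 and 20.4 CPM in cWT mNK1 and at 7.14, 6.61 and 8.996 CPM in cWT mNK2. The iNK and mNK1 libraries of cWT overlapped, because mNK1 replicate 3 was as high as iNK replicate 3, while no mNK2 library reached an mNK1 library. The log2 fold change was -0.52 ± 0.21 (SE) from iNK to mNK1 and -1.03 ± 0.22 from mNK1 to mNK2. With cWT replicate 3 alone the first value was 0.011 and the second -1.16, so the first step in cWT rests on replicates 1 and 2. In the libraries labelled cKO, Kit was 22.5, 15.4 and 23.8 CPM in iNK, 7.85, 6.99 and 5.55 CPM in mNK1 and 1.41, 3.11 and 2.37 CPM in mNK2. None of these 3 fractions overlapped, and the log2 fold changes were -1.60 ± 0.22 and -1.56 ± 0.25. The library with the fewest Kit counts, cKO mNK2 replicate 1, held 18, and its exact Poisson interval at the 95% level ran from 0.836 to 2.23 CPM and covers counting error only.

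The libraries labelled cKO, in which Bach2 counts were not lower, were compared with cWT within each fraction, and Kit was lower in cKO in 3 of the 4. In the fraction labelled NK it was 13.93, 14.0015 and 12.8 CPM in cWT and 6.17, 6.52 and 5.73 CPM in cKO, with log2 fold change -1.14 ± 0.22 (SE). These groups were the tightest of the conditional experiment, with an SD of 0.689 and 0.395 CPM, and did not overlap. In mNK1 the means were 15.5 ± 4.43 CPM in cWT and 6.80 ± 1.16 CPM in cKO (SD, n = 3), without overlap, with a log2 fold change of -1.19 ± 0.22. In mNK2 they were 7.58 ± 1.26 and 2.30 ± 0.854 CPM, again without overlap, at -1.72 ± 0.25. The iNK fraction went against the pattern by which the gene was chosen: the means were 22.2 ± 2.82 and 20.6 ± 4.49 CPM, the libraries overlapped, and the log2 fold change was -0.10 ± 0.21. Whether the fold change differed between fractions was not tested, since the fractions entered the choice of the gene.

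Split by their Ncr1 level, the control libraries stood above the cKO mean in Kit in NK, mNK1 and mNK2 on either side of the split, while in iNK the ratio fell on both sides of 1. The ratio of cWT replicate 3 to the cKO mean was 2.08 in NK, 0.977 in iNK, 2.995 in mNK1 and 3.91 in mNK2. For the mean of replicates 1 and 2 it was 2.28, 1.13, 1.91 and 2.99. In mNK1 and mNK2 Kit was highest in the cWT library whose Ncr1 level was nearest to cKO, and in NK and iNK it was lowest there. That is 1 library in each fraction, and its Ncr1 lay below every cKO library, at 826 against 1550 to 1578 CPM in NK. The split therefore cannot separate the Ncr1 difference from the genotype, and its part in the Kit values was not tested. Fitted with replicate 3 as the only control, the log2 fold change was -1.05 in NK, -0.0093 in iNK, -1.61 in mNK1 and -1.97 in mNK2, where the single control library is assumed to vary like the other groups.

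**Figure D2:**
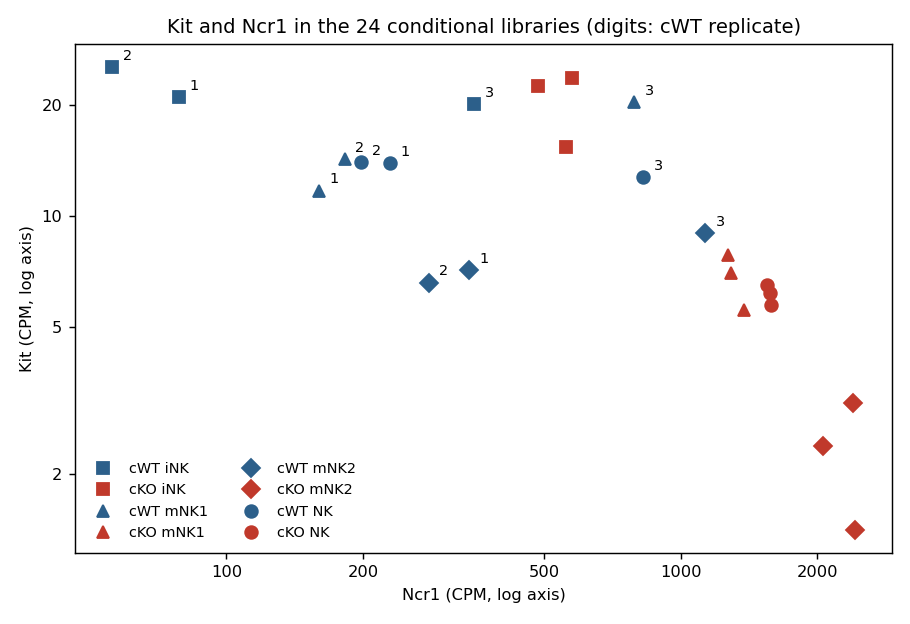
Kit against Ncr1, both in CPM on log axes, for the 24 conditional libraries; blue marks cWT and red cKO, marker shapes show the fraction, and digits give the cWT replicate. The cWT replicates 1 and 2 lie to the left of replicate 3 in each fraction, and Kit in replicate 3 is above the cKO libraries in NK, mNK1 and mNK2 and within their range in iNK.

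The chimeras, hosts of mixed WT and Bach2-KO marrow, compare KO with WT cells in the fraction labelled NK. This differs from the conditional comparison: Bach2 counts were lower in the chimera KO libraries but not in those labelled cKO. Kit was 19.7, 22.9, 31.7 and 31.4 CPM in the WT libraries and 12.5, 8.19, 14.5 and 8.79 CPM in the KO libraries. The highest KO library lay below the lowest WT library. The means were 26.4 ± 6.06 and 10.99 ± 3.02 CPM (SD, n = 4), and the log2 fold change was -1.28 ± 0.20 (SE), which equals a 2.42-fold lower fitted level. No iNK or mNK libraries of the chimeras were analysed here, so the Kit level at each maturation stage there is not given.

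Ordered by mean within the conditional experiment, Kit ran from cWT iNK (22.2 CPM) and cKO iNK (20.6 CPM) through cWT mNK1 (15.5 CPM), cWT NK (13.6 CPM), cWT mNK2 (7.58 CPM), cKO mNK1 (6.80 CPM) and cKO NK (6.14 CPM) to cKO mNK2 (2.30 CPM). Neighbours in this order overlapped except at 2 places, between cWT NK and cWT mNK2 and between cKO NK and cKO mNK2. The cWT mNK2 mean stood just above the cKO mNK1 mean, an order reversed in Tnfsf8, Tcf7 and Crtam, as given below. Set among all genes tested, Kit was far towards the lower end of the fold changes in most comparisons: 1.84% of genes had a lower estimate in NK, 1.05% in mNK1, 1.00% in mNK2 and 1.15% in the chimeras, against 30.0% in iNK. The corresponding shares were 4.04%, 3.58% and 2.46% for the 3 WT steps and 12.4% and 10.53% for the 2 cWT steps. For the cKO steps they were 4.01% from iNK to mNK1 and 8.50% from mNK1 to mNK2. Kit was chosen for its fall in such comparisons, so its low place among all genes follows from the choice. The median log2 fold change of all genes was within 0.03 of 0 in every one of the 12 comparisons.

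**Figure D3:**
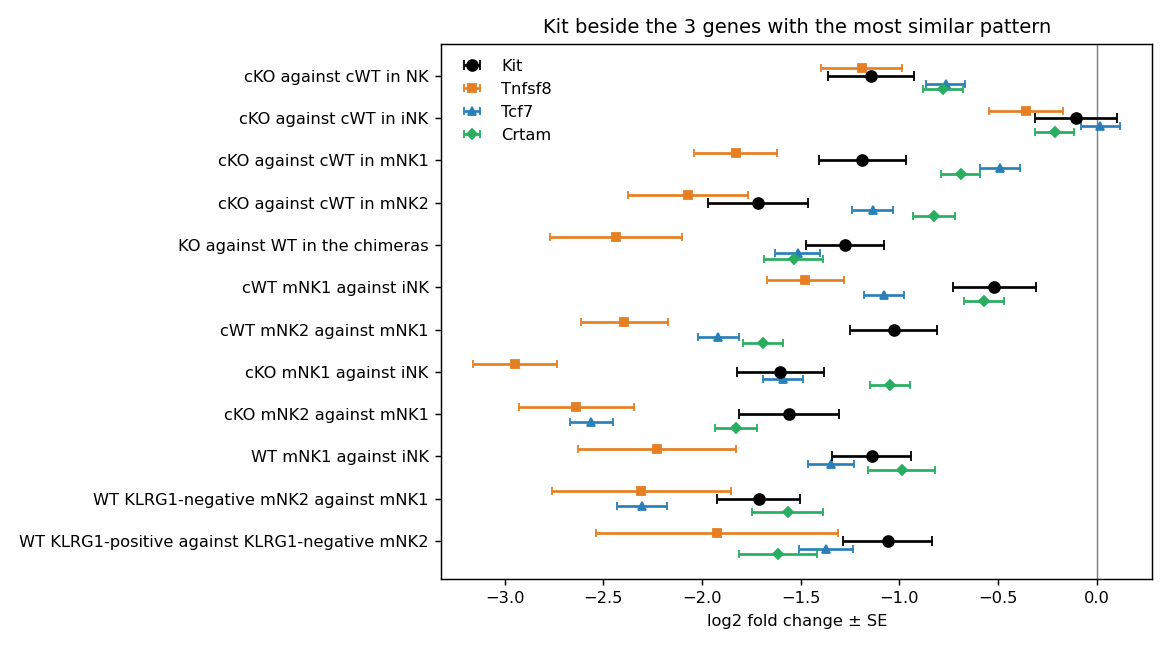
Log2 fold change ± SE of Kit (black circles) in the 12 comparisons, beside Tnfsf8, Tcf7 and Crtam, whose patterns over the libraries were most like it. All Kit estimates lie below 0, between -1.72 for cKO against cWT in mNK2 and -0.10 for cKO against cWT in iNK.

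Likeness to Kit was measured over all 48 libraries, as Pearson's r of log2 CPM with the mean of each experiment subtracted, among 10457 genes; the libraries share fractions, genotypes and batches, so r carries no p. The median gene had r = -0.02, with a middle range from -0.34 to 0.33. Nearest to Kit were Tnfsf8 (r = 0.948), the gene of CD30 ligand, Tcf7 (0.946), the gene of TCF-1, a factor known from early T cells and stem-like lymphocytes, and Crtam (0.938), an adhesion receptor of NK and T cells. Next came Kifc3 (0.925), a kinesin motor, Rftn1 (0.923), a lipid raft protein, Aff3 (0.922), a nuclear factor, Cd160 (0.917), a receptor of NK cells, Arid5a (0.909), an RNA-binding protein, Gzmm (0.908), granzyme M, and Kbtbd11 (0.908). With Spearman's coefficient 7 of these 10 stayed among the nearest 10, and with the 14 group means 7 did.

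The levels of these genes are given beside Kit for the groups at the ends of its range, and the full order of groups differed: cWT mNK2 stood below cKO mNK1 in Tnfsf8 (3.21 against 4.77 CPM), Tcf7 (100.1 against 269 CPM) and Crtam (37.01 against 74.1 CPM), and above it in Kit. Tnfsf8 stood at 30.9 ± 7.42 CPM in WT iNK, 6.60 ± 1.79 in mNK1, and in mNK2 at 1.33 ± 1.25 without and 0.334 ± 0.294 with KLRG1 (SD, n = 4), and at 6.94 ± 1.12 against 1.29 ± 0.529 CPM in chimera WT and KO. Tcf7 ran from 329.9 ± 25.9 CPM in WT iNK to 10.1 ± 1.72 CPM in KLRG1-positive mNK2. In iNK, where Kit overlapped between the genotypes, Tcf7 overlapped too, with a log2 fold change of 0.02 ± 0.10, and the estimates were -0.21 ± 0.10 for Crtam and -0.36 ± 0.19 for Tnfsf8. At the opposite end stood Gpc1 (r = -0.903), the gene of the proteoglycan glypican 1, the sorting nexin genes Snx10 (-0.888) and Snx5 (-0.887), Entpd1 (-0.887), the gene of the ATP-degrading enzyme CD39, and Timp2 (-0.874), an inhibitor of matrix proteases. Entpd1 stood at 2.35 ± 1.03 CPM in WT iNK and 121 ± 8.33 CPM in KLRG1-positive mNK2, and at 53.0 ± 9.03 against 107 ± 12.9 CPM in chimera WT and KO. Being picked for their likeness to Kit, these genes repeat its pattern by construction.

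**Figure D4:**
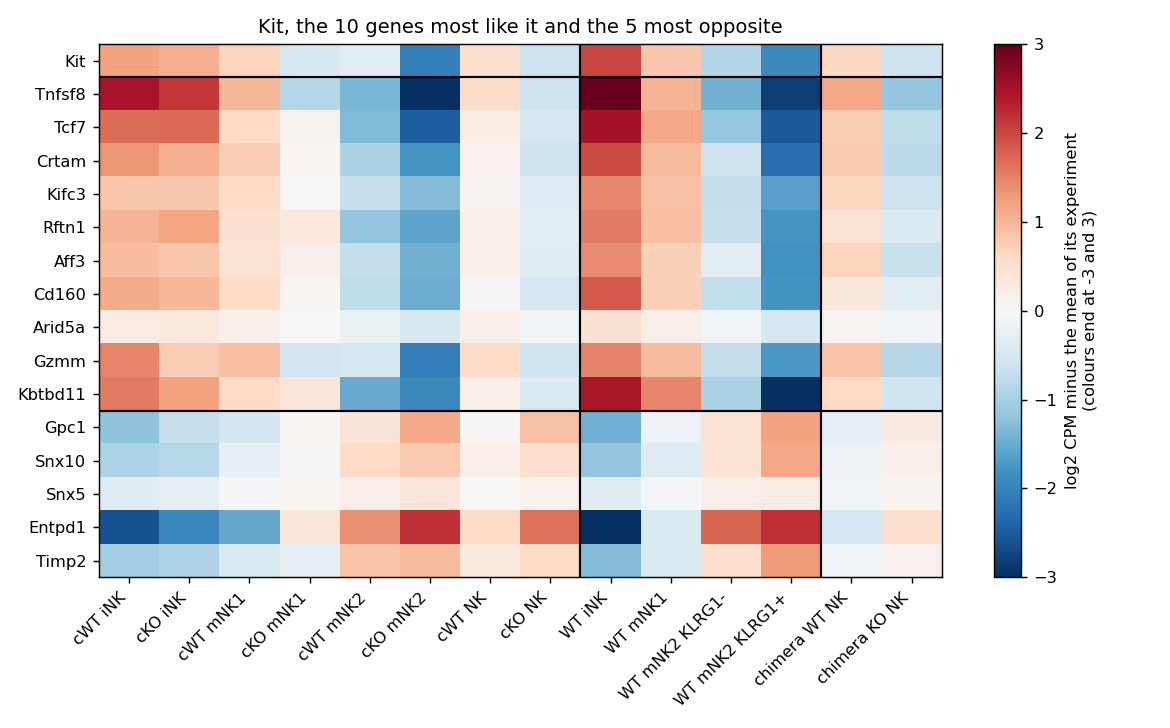
Mean log2 CPM of Kit, the 10 genes most like it and the 5 most opposite in each of the 14 groups, after subtracting the mean of its experiment; red is above and blue below that mean, and colours end at -3 and 3. Black lines part the experiments and the 3 sets of genes; Kit and the next 10 rows are red in iNK and blue in mNK2, and the last 5 rows are the reverse.

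Genes of immature NK cells and precursors, a list of 24 that leaves out Kit itself, were read from the test across all genes. Between WT iNK and mNK1, 16 of 24 fell and 3 rose, beside 4.14% and 6.39% of all genes tested; among those that fell were Ltb, a lymphotoxin gene (-1.97 ± 0.12), Il7r, the interleukin-7 receptor gene (-3.61 ± 0.23), and Tcf7 (-1.34 ± 0.12), while Eomes, a master regulator of NK cells, rose (0.60 ± 0.09, adjusted p = 3.28e-05). Between mNK1 and KLRG1-negative mNK2, 16 fell and 0 rose (5.11% and 2.18% of all genes), with Thy1 at -2.61 ± 0.16 and Cxcr3, a chemokine receptor gene, at -2.05 ± 0.14. Between the KLRG1-negative and KLRG1-positive cells, 11 fell and 0 rose (0.624% and 0.733% of all genes), with Cd27, a marker of less mature NK cells, at -1.24 ± 0.14 (adjusted p = 5.31e-06). In cWT 16 fell and 4 rose from iNK to mNK1 (8.29% and 10.2% of all genes), and 17 fell and 1 rose from mNK1 to mNK2 (12.6% and 7.7%). With cWT replicate 3 alone 8 and 9 of the list were called in these 2 steps. The r to Kit was 0.843 for Il7r and 0.899 for Cd27.

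Between the libraries labelled cKO and cWT at most 5 of the listed genes were called in a fraction. In the fraction NK, 5 of 24 fell and 0 rose, beside 0.253% and 0.318% of all genes, among them Crtam (-0.78 ± 0.10, adjusted p = 0.000185), Tcf7 (-0.77 ± 0.10), Emb, an adhesion protein gene (-0.62 ± 0.09), and Cd27 (-0.43 ± 0.08, lost on leaving out 2 of the 6 libraries in turn). In iNK, where Kit overlapped between genotypes, 0 of 24 were called by edgeR or by DESeq2, 7 had an unadjusted p under 0.05, and 0.0816% and 0.212% of all genes were called lower and higher. In mNK1 3 fell and 2 rose (0.188% and 0.383% of all genes), with Crtam at -0.69 ± 0.10 against Itga1, the gene of the integrin CD49a, at 1.12 ± 0.21, a call lost on leaving out 4 of the 6 libraries in turn. In mNK2 4 fell and 0 rose (0.131% and 0.131% of all genes), led by Tcf7 at -1.13 ± 0.10 (adjusted p = 1.50e-06). With cWT replicate 3 alone 1, 0, 1 and 2 of the list were called in NK, iNK, mNK1 and mNK2, Crtam in NK, mNK1 and mNK2 with adjusted p of 0.00831, 0.0446 and 0.0192. In the chimeras 13 of 23 tested fell and 2 rose, beside 2.36% and 2.64% of all genes. Among them Tcf7 fell from 79.3 ± 10.8 to 27.7 ± 3.08 CPM (-1.52 ± 0.11), Ccr7, a chemokine receptor gene, changed by -3.43 ± 0.38, and Id2, a factor all innate lymphoid cells need, rose (0.37 ± 0.09, adjusted p = 0.0112, lost on leaving out 3 of the 8 libraries in turn). The count of called members was 9 instead of 15 without WT replicate 2 or KO replicate 2.

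The ligand of KIT was nearly absent from the libraries. Kitl had 0 counts in 8 of the 14 groups and at most 7 counts summed over a group, in chimera WT, so it passed the filter on low counts in no experiment. Its level in other cells of the spleen was not measured here. Of the 54 other members of the KIT signalling list, adaptors, kinases, inhibitors and ubiquitin ligases, 51 passed the low-count filter in the conditional experiment, 50 in the chimeras and 49 in the WT subsets.

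None of the 51 signalling genes was called between cKO and cWT in NK, iNK, mNK1 or mNK2 by edgeR, with 1, 5, 6 and 3 at an unadjusted p under 0.05, and 0 were called by DESeq2. Of all genes 0.253%, 0.0816%, 0.188% and 0.131% were called lower there, and 0.318%, 0.212%, 0.383% and 0.131% higher. A count of 0 in a list of this size is near these shares. In mNK1 the replicate block gave 1 call, and fits with 1 library left out gave up to 2. Their median log2 fold change was 0.04, 0.08, 0.08 and 0.01 in that order, beside 0.00, 0.02, 0.01 and -0.02 over all genes. Among the most abundant, Dok2, an adaptor that restrains receptor kinases, had a log2 fold change of 0.18 ± 0.11 in NK, the kinase gene Fyn 0.06 ± 0.08, and the phosphatase gene Ptpn6 -0.04 ± 0.18. In the chimeras 1 of 50 fell and 1 rose, near the 2.36% and 2.64% of all genes. Sh2b3, the gene of LNK, an adaptor that restrains KIT signalling, fell from 62.7 ± 7.44 to 42.7 ± 8.11 CPM (SD, n = 4, -0.56 ± 0.13, adjusted p = 0.00909). Matk, the gene of a kinase that restrains SRC family kinases, rose from 0.801 ± 0.310 to 2.69 ± 1.00 CPM (1.74 ± 0.48, adjusted p = 0.0336), a call lost on leaving out 6 of the 8 libraries in turn. Without KO replicate 4 the list had 6 calls. The list had a median of -0.02 there, beside -0.01 over all genes.

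Along maturation in the WT subsets signalling genes were called in both directions up to KLRG1-negative mNK2, while Kit was lower at each step. Their numbers were near the shares of all genes given below, apart from those that rose in the first step. From WT iNK to mNK1, 2 of 49 fell and 7 rose, beside 4.14% and 6.39% of all genes. These included Socs1, a feedback inhibitor (-0.90 ± 0.19), and Plcg1 (-2.73 ± 0.68) against Dok2 (0.59 ± 0.08), Mapk3, the gene of ERK1 (0.60 ± 0.12), Pik3cb, a PI3 kinase subunit gene (1.00 ± 0.20), and Plcg2 (0.50 ± 0.10). The pair of phospholipase C gamma genes thus moved in opposite directions, with Plcg1 from 8.13 ± 4.90 to 1.22 ± 0.908 CPM and Plcg2 from 148 ± 17.6 to 208 ± 24.8 CPM (SD, n = 4). T cell genes, among which Plcg1 is well expressed, were also highest in iNK, at a sum of 745 to 935 CPM over 8 markers against 50.1 to 78.5 CPM in mNK1, and their part in this value was not tested. From mNK1 to KLRG1-negative mNK2, beside 5.11% and 2.18% of all genes, 1 fell, the SRC family kinase gene Fgr (-0.95 ± 0.16), and 2 rose, Dok2 (0.31 ± 0.08) and Plcg2 (0.38 ± 0.10), calls lost on leaving out 2 and 4 of the 8 libraries in turn. Between the mNK2 fractions 0 of 49 were called by edgeR, beside 0.624% and 0.733% of all genes, with 6 at an unadjusted p under 0.05, and 1 by DESeq2.

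In cWT 1 of 51 was lower and 12 higher from iNK to mNK1, beside 8.29% and 10.2% of all genes, and 5 were lower and 8 higher from mNK1 to mNK2, beside 12.6% and 7.7%. Pik3cb (1.12 ± 0.13), Dok2 (0.80 ± 0.11) and the adaptor gene Gab2 (1.18 ± 0.23) rose in the first step, and Plcg1 fell (-2.83 ± 0.41). In the second, Fgr (-0.93 ± 0.11), Matk (-2.47 ± 0.33) and the kinase genes Btk (-2.26 ± 0.32) and Tec (-0.74 ± 0.14) fell, and Plcg2 rose (0.61 ± 0.13). Btk is also known from B cells, myeloid cells and mast cells, and the summed markers of mast cells and basophils without Cma1 stood at 615 to 888 CPM in cWT mNK1 against 135 to 209 CPM in cWT mNK2, a difference whose part in these values was not tested. With cWT replicate 3 alone 3 and 0 of the list were called in these steps.

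**Figure D5:**
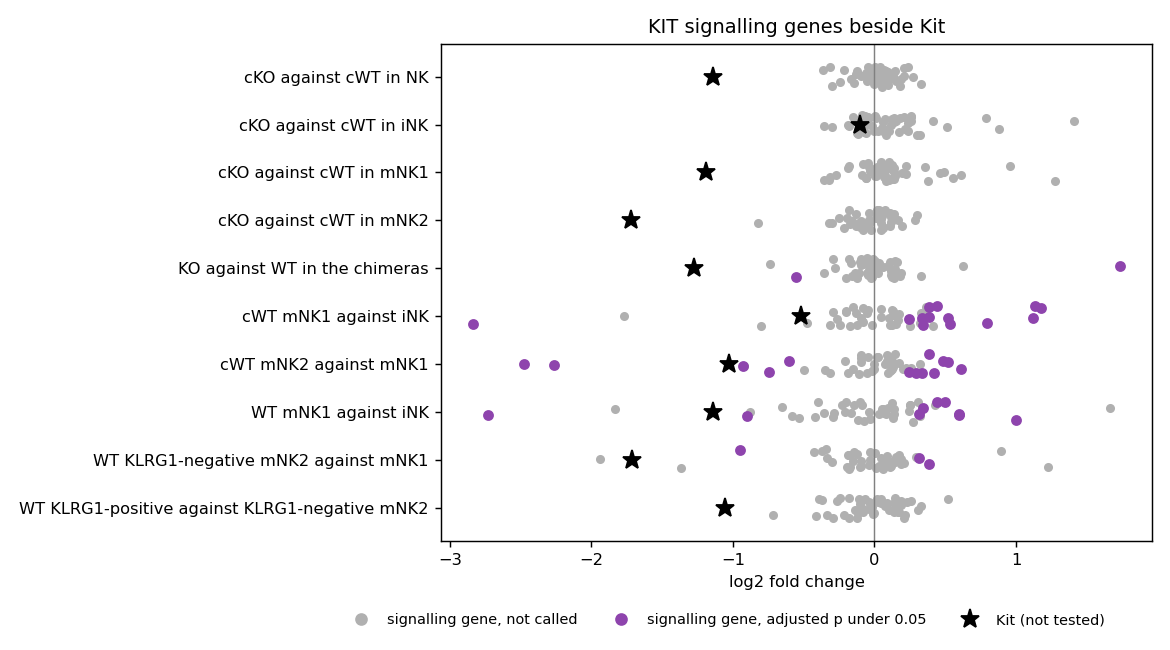
Log2 fold changes of the tested members of the KIT signalling list (dots, spread vertically for legibility) and of Kit (stars) in 10 comparisons; purple dots passed the edgeR test at an adjusted p under 0.05. In the 4 conditional knockout comparisons no dot is purple, while Kit lies at -1.14, -0.10, -1.19 and -1.72 in NK, iNK, mNK1 and mNK2. At most 0.383% of all genes were called in either direction there.

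Of 20 transcription factors described at Kit in blood cells, Myb had the pattern nearest to Kit (r = 0.780). It is known as a factor of progenitors that binds the Kit gene in blood cells. Myb stood at 14.3 ± 2.09 CPM in cWT NK and 7.92 ± 0.425 CPM in cKO NK (SD, n = 3) and fell by 0.85 on the log2 scale, with an SE of 0.15 and an edgeR adjusted p of 0.00557, or 0.0616 with cWT replicate 3 as the only control. In the chimeras Myb went from 12.8 ± 5.04 to 6.89 ± 0.887 CPM (-0.91 ± 0.25, adjusted p = 0.038), though the libraries overlapped and the call was lost on leaving out 7 of the 8 in turn. It also fell from WT mNK1, at 26.5 ± 6.35 CPM, to KLRG1-negative mNK2, at 5.98 ± 1.81 CPM (-2.15 ± 0.36), and from cWT mNK1 to mNK2 (-2.29 ± 0.16). From iNK to mNK1, where Kit was lower, Myb was not called: its means were 22.3 and 26.5 CPM in WT and 21.2 and 27.8 CPM in cWT.

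The other factors moved less like Kit. Zbtb16, the gene of PLZF, a factor of innate lymphoid precursors, rose in cKO NK (1.08 ± 0.24, adjusted p = 0.0364) and in chimera KO (0.86 ± 0.20), and in NK its adjusted p was 0.509 with cWT replicate 3 alone and up to 0.262 with 1 library left out, where 5 of 6 such fits lost the call. Gata2, a factor of progenitors, mast cells and basophils, rose in chimera KO from 2.97 ± 0.756 to 23.02 ± 8.98 CPM (2.94 ± 0.31). The mast cell and basophil markers, a list that holds Gata2 itself, rose there as well. In the chimeras 2 of 17 regulators tested fell and 2 rose, beside 2.36% and 2.64% of all genes. The 2 that fell were Myb and Bach2. Bach2 is the gene knocked out in the KO cells, so its fall was fixed in advance. In NK 1 of 18 fell and 1 rose, beside 0.253% and 0.318%. In iNK, mNK1 and mNK2 0 of 18 were called by edgeR, with 6, 4 and 4 at an unadjusted p under 0.05, and DESeq2 called 0, 1 and 0. Of all genes 0.0816%, 0.188% and 0.131% were called lower there by edgeR, and 0.212%, 0.383% and 0.131% higher. Along maturation in WT, Runx1 (0.72 ± 0.10) and Ikzf1 (0.29 ± 0.09, lost on leaving out 6 of the 8 libraries in turn) rose from iNK to mNK1, 2 of 16 tested beside 6.39% of all genes, and 0 fell. In the next step 2 of 16 fell, beside 5.11% of all genes, and 0 rose: Myb fell, as did Gata2, which had 62 counts in mNK1 and 0 in KLRG1-negative mNK2 and whose call was lost on leaving out 7 of the 8 libraries in turn. Between the mNK2 fractions 0 of 16 were called by edgeR, beside 0.624% and 0.733% of all genes, with 1 at an unadjusted p under 0.05, and 0 by DESeq2. In cWT 3 of 18 fell and 4 rose from iNK to mNK1 (8.29% and 10.2% of all genes), among them Lmo2 (-1.15 ± 0.26) and Gata2 (1.79 ± 0.38), and 5 fell and 1 rose from mNK1 to mNK2 (12.6% and 7.7%), among them Gata2 (-2.48 ± 0.39) and Gata1 (-3.11 ± 0.50). The basophil markers had the same direction as Gata1 and Gata2 at both cWT steps. Their sum without Cma1 was 191 to 231 CPM in iNK, 615 to 888 CPM in mNK1 and 135 to 209 CPM in mNK2. Gata2 is part of this sum, so its shared direction is partly fixed in advance. With cWT replicate 3 alone 1 regulator was called in each of these 2 steps.

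Of the receptors of the same class Pdgfra, Pdgfrb and Flt3 were scarcely expressed, while Csf1r reached a mean of 10.8 CPM in WT mNK1, where Kit stood at 67.2 CPM. Pdgfra had 2 counts in all 48 libraries and Pdgfrb at most 14 counts in a group. Flt3 did not exceed a mean of 1.94 CPM in any group. Csf1r, the receptor of monocytes and macrophages, was higher in WT mNK1 than in iNK (10.8 ± 8.22 against 0.255 ± 0.510 CPM, log2 fold change 5.28 ± 1.09) and lower again in KLRG1-negative mNK2 (-3.33 ± 0.93, lost on leaving out 5 of the 8 libraries in turn), with library values in mNK1 from 3.95 to 22.4 CPM. From cWT mNK1 to mNK2 Csf1r also fell (log2 fold change -2.14, edgeR adjusted p = 0.0458), a call lost on leaving out 5 of the 6 libraries in turn. The 8 myeloid markers summed to 16.8 to 68.1 CPM in WT mNK1 against 0 to 5.75 CPM in iNK, and to 236 to 740 CPM in cWT mNK1. Their part in the Csf1r values was not tested.

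The 10 nearest RefSeq genes with counts on each side of Kit gave no call between cKO and cWT or in the chimeras. Among genes with counts, Pdgfra lies next to Kit on one side and Kdr, a VEGF receptor gene with 12 counts in all libraries, on the other. Of the 20 neighbours 15 were tested in the chimeras and 16 in each of the other experiments. Called by edgeR or DESeq2 were 0 in NK, iNK, mNK1, mNK2 and the chimeras, with 1, 0, 1, 0 and 0 at an unadjusted p under 0.05. Of all genes edgeR called 0.0816% to 0.383% per direction between cKO and cWT, and 2.36% lower and 2.64% higher in the chimeras. A count of 0 in a list of this size is near these shares. Along maturation Scfd2, a vesicle transport gene, rose from WT iNK to mNK1 (0.40 ± 0.12) and to KLRG1-negative mNK2 (0.40 ± 0.12), and in cWT from iNK to mNK1 (0.81 ± 0.12), while Kit was lower. Of all genes 6.39%, 2.18% and 10.2% were called higher at these steps. The 2 WT calls of Scfd2 were lost on leaving out 5 and 6 of the 8 libraries in turn. From cWT mNK1 to mNK2 Rasl11b (-1.14 ± 0.24) and Paics, a purine synthesis gene (-0.25 ± 0.08), fell, and Fip1l1 (0.26 ± 0.08) and Usp46 (0.73 ± 0.22) rose, beside 12.6% and 7.7% of all genes. The Paics call was lost on leaving out any of the 6 libraries. No neighbour was called between the mNK2 fractions, by either tool or at an unadjusted p under 0.05, beside 0.624% and 0.733% of all genes called by edgeR.

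Since KIT is a defining receptor of mast cells, their markers were summed in every library. The tryptase genes Tpsb2 and Tpsab1 had 0 counts in all 14 groups, and Mcpt4 at most 12 counts in a group. Cma1 was by far the largest of them in the mNK2 libraries, up to 1539 CPM, so the sum was also taken without it, an alternative chosen after seeing the data. The other 12 markers in the table, which include the basophil genes Fcer1a, Mcpt8 and Prss34, summed to 455 to 579 CPM in cWT NK and 290 to 511 CPM in cKO NK, to 191 to 231 and 224 to 446 CPM in iNK, to 615 to 888 and 686 to 1594 CPM in mNK1, and to 135 to 209 and 75.8 to 95.5 CPM in mNK2. In NK, iNK and mNK1 the genotypes overlapped, and in mNK2 the sum was lower in cKO, as Kit was. In the chimeras the sum was higher in the KO libraries, at 71.3 to 325 CPM against 20.4 to 36.3 CPM, where Kit was lower. There 6 of 9 tested markers, Cma1 and Gata2 included, rose, beside 2.64% of all genes. The WT subset libraries held 4.75 to 27.5 CPM in iNK, 12.3 to 26.04 CPM in mNK1, and in mNK2 8.50 to 13.4 CPM without and 4.797 to 9.68 CPM with KLRG1. Kit at 148 CPM in WT iNK stood beside a basophil sum of at most 27.5 CPM. In the conditional libraries Kit was below this sum in every group.

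The 11 NK markers summed to 10246 to 13379 CPM in WT iNK and 35631 to 40821 CPM in KLRG1-positive mNK2. In cWT their sum was 9350 to 12865 CPM in iNK and 45718 to 66130 CPM in mNK2, and in cKO 8129 to 11215 and 47668 to 62600 CPM. In the chimeras it was 27272 to 36509 CPM in WT and 33655 to 46222 CPM in KO, with overlap. The part of this difference in the Kit values was not tested. Marker sums of other lineages also differed between fractions and genotypes. Summed T cell markers (8 genes) stood at 1385 to 2145 CPM in cWT iNK and 1319 to 1976 CPM in cKO iNK, and at most at 89.1 CPM in the mNK1 and mNK2 libraries. B cell markers (8 genes) stood at 490 to 770 CPM in cWT iNK and 755 to 1370 CPM in cKO iNK, and at 121 to 279 CPM in WT iNK. In the chimeras the T cell sum was 85.05 to 159 CPM in WT and 15.96 to 24.04 CPM in KO, and the B cell sum 74.0 to 198 against 15.5 to 43.2 CPM, both in the direction of Kit. Stem and progenitor markers, 12 genes without Kit, summed to 5.70 to 9.48 CPM in WT iNK and 5.73 to 10.2 CPM in WT mNK1, below Kit in every library of both. In the conditional experiment their sum was above Kit, at 40.3 to 47.8 CPM in cWT iNK, 94.7 to 130 CPM in cWT mNK1 and 98.2 to 277 CPM in cKO mNK1. In the chimeras it was 2.38 to 8.08 CPM in WT and 11.4 to 36.1 CPM in KO, and Gata2, which the basophil list also holds, made up 2.97 and 23.02 CPM of the means. Neutrophil markers (7 genes) summed to 8.25 to 29.7 CPM in chimera WT and 95.02 to 323 CPM in chimera KO, and myeloid and dendritic markers (8 genes) to 16.3 to 30.3 and 71.6 to 205 CPM, both opposite to Kit. From cWT iNK to mNK1 the neutrophil sum went from 20.2 to 25.6 CPM to 65.6 to 125 CPM and the myeloid sum from 23.2 to 78.4 CPM to 236 to 740 CPM. Among 13 markers of the other innate lymphoid cells, Gata3 alone was tested in the WT subsets and took nearly the whole sum, at 217 and 219.5 CPM in KLRG1-negative and KLRG1-positive mNK2. In the conditional experiment 7 were tested. Of these 2 fell and 0 rose from cWT iNK to mNK1 (8.29% and 10.2% of all genes). From cWT mNK1 to mNK2 1 fell and 0 rose (12.6% and 7.7%). The part of these cells in the Kit values was not tested.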

How the data were processed

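Gene counts of 48 libraries were used as the authors deposited them, whole numbers per gene symbol. Per the submitters' processing notes, FastQC and STAR 2.5.0 were used with build mm9. Per the labels' protocols, total RNA went into SMARTer libraries. Strand setting, annotation and counter are not given in the sources used here. Kit has 0 overlapping RefSeq genes. Of 60 library pairs within groups 0 were identical, with chi-square per degree of freedom from 7.55 to 90.3.

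The experiments were fitted apart in edgeR 4.0.16 (R 4.3.3; filterByExpr, TMM factors, robust quasi-likelihood F test with all groups of an experiment) over 12258, 11051 and 10614 genes, with 16, 12 and 6 residual degrees of freedom. Benjamini-Hochberg adjustment ran over all genes of a comparison, and a call is an adjusted p under 0.05. The ± beside a log2 fold change is its SE. CPM uses TMM-scaled totals. Likeness used a prior count of 2. Alternatives were DESeq2 1.42.0, RLE factors, no low-count filter, a replicate block and each library left out. The tests were tried on simulated counts.

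Kit, the gene lists and the comparisons were chosen with earlier results of these data known. Named were Kit, Kitl, per comparison up to 4 lower and 4 higher called members of each list by smallest p, the most abundant uncalled members as examples, called neighbours, the 10 genes most like Kit and the 5 most opposite, and of each marker list the most and least abundant markers. Cd27 in NK, Myb at the iNK step, and the basophil genes beside Kit were named after their values were seen. The main fits did not pair libraries by replicate number, since the residual correlation was at or under 0.1 for at least 1 pair in each of the 12 comparisons. Yet 8 of 8 libraries correlated best with their own number in the chimeras and between the mNK2 fractions (r of 0.0509 to 0.128). Between WT mNK1 and KLRG1-negative mNK2 6 of 8 did. A pairing in these comparisons therefore remains possible, and the replicate block is given as an alternative. Sequences are RefSeq's, GRCm38.p6. Some called members of the lists are counted but not named here.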

Additional observations from a re-analysis of the deposited data

Results flagged for a closer look

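Of 150 groups of 4 libraries examined for Kit, the genes most like and opposite to it and the marker sums, 9 held a library far from the others by Dixon's criterion at the 95% level, close to the 1 in 20 that chance gives, and none of the 9 was Kit. The values were 235 CPM of Arid5a in WT iNK replicate 1 (nearest 189), 278 of Gpc1 in WT mNK1 replicate 2 (248), 31.5 of Rftn1 in KLRG1-negative mNK2 replicate 4 (26.8), 38.1 of Cd160 in KLRG1-positive mNK2 replicate 1 (48.6) and 26.2 of Timp2 in KLRG1-positive mNK2 replicate 3 (30.5). In the chimeras the stem and progenitor sum was 2.38 CPM in WT replicate 4 (nearest 7.53). The KO libraries gave Tnfsf8 at 2.07 CPM in replicate 3 (nearest 1.12), Crtam at 11.53 in replicate 1 (18.9) and Aff3 at 12.3 in replicate 4 (6.71).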

How the results depend on the processing

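In 131 of 134 refits the Kit fold change moved by less than the SD between libraries, although without cKO iNK replicate 2 the iNK value passed 0, at 0.02. The 3 larger moves came with cWT replicate 3 alone: -1.05 in NK, -1.61 in mNK1 and 0.011 from cWT iNK to mNK1, while genes called then numbered 7 in NK, 0 in iNK, 6 in mNK1, 8 in mNK2, and 427 and 353 in the cWT steps (against 2271 and 2483); fewer samples enter these fits. With each library left out, Kit ran from -1.20 to -1.13 in NK, -0.24 to 0.02 in iNK, -1.35 to -0.95 in mNK1, -1.99 to -1.46 in mNK2 and -1.43 to -1.16 in the chimeras, and genes called from 36 to 69 in NK (main 70), 5 to 25 in iNK (36), 26 to 92 in mNK1 (70) and 18 to 26 in mNK2 (32), lowest without cWT replicate 1, cWT replicate 3, cKO replicate 2 and cKO replicate 2 of the fraction. DESeq2 called 128 genes in NK, 82 in iNK, 126 in mNK1, 69 in mNK2 and 256 between the mNK2 fractions (150). The replicate block gave 67 genes in iNK, 62 in mNK2 and 742 in the chimeras (main 531), and moved no Kit fold change by more than that SD. The labels do not say what a shared number means. In the chimeras the residual r was 0.0932 to 0.167, and 8 of 8 libraries correlated best with their own number. With totals that leave out Rn45s the Kit level was 35.4 CPM in chimera WT, 206 in WT iNK, 12.3 in KLRG1-positive mNK2 and 14.3 in cWT NK, and with raw totals 14.3 in cWT NK. The cause of the other moves was not tested. Depth limits Kit most in cKO mNK2, where 18 to 39 counts per library stand behind the level.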
